A study of Mus musculus with 2 samples.

Results

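Antioxidant enzymes and the supply of glutathione were examined in the eye cups of wild-type and Mfsd2a KO mice through 10 genes: the glutathione peroxidases Gpx1, Gpx3 and Gpx4, the peroxiredoxin Prdx6, the superoxide dismutase Sod1, the glutathione supply genes Slc7a11, Gclc and Gclm, and the heme and quinone enzymes Hmox1 and Nqo1. Members were all probe sets (groups of short array probes for 1 transcript) whose annotated symbol was 1 of these genes alone, which gave 17 of the 45101 probe sets on the array. These covered 9 of the 10 genes, since no probe set carried the symbol Prdx6 alone in the annotation used.

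The Mfsd2a protein brings docosahexaenoic acid, a polyunsaturated fatty acid, into brain and eye, bound within lysophosphatidylcholine. Per the labels, the wild-type sample was RNA pooled in equal amounts from 6 animals and the Mfsd2a KO sample was RNA pooled from 6 knockout animals, all at postnatal day 13. The labels do not give the strain, the sexes or the part of Mfsd2a that is deleted. The eye cup, here retina, pigment epithelium, choroid and sclera, is what remains once cornea, lens and optic nerve are taken off, and each pool was read on 1 Affymetrix Mouse 430 2.0 array. With 1 array per genotype there was no spread between samples, so no test was made, no p-value is given, and precision is limited by the number of arrays. In whole tissue, fewer cells of a type and less RNA per cell cannot be told apart.

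Photoreceptor membranes are rich in docosahexaenoic acid, whose many double bonds are readily attacked by oxygen radicals to form lipid peroxides. Gpx4 reduces lipid peroxides within membranes at the cost of glutathione, a small thiol made from cysteine that enters cells as cystine through the Slc7a11 exchanger. Many of the genes that make or use glutathione are switched on by the transcription factor NRF2 (gene Nfe2l2) through a DNA site called the antioxidant response element, and loss of lipid peroxide repair can end in an iron-dependent cell death called ferroptosis.

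Promoter sequences were searched for the core of that element, TGACNNNGC, on both strands, because it is the site through which NRF2 acts. RefSeq promoter windows of assembly GRCm38.p6, from 250 bases before to 50 bases after a transcript start, were at hand for 7 of the members, with 4 windows for Gpx4 and 10 in all. The core was found in 2 of these genes, Gclm and Sod1, both on the opposite strand, where it reads GCNNNGTCA. It was present in 12.4% of all 32851 promoter windows and in 14.0% of the 27025 genes that had one, so a match is not particular to these genes. Over the array, the 1581 measured genes with a match had a median log2 difference of 0.018 between the pools and the 7787 without one 0.014. The 81 bases around each match are given on the gene's plus strand, with the matched core in capitals.
Gclm, chr3:122245387-122245467: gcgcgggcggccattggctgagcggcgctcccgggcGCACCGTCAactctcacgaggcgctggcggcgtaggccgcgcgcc
Sod1, chr16:90220670-90220750: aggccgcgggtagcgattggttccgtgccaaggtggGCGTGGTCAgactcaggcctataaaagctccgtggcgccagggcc
The Gclm match lay 134 to 126 bases before the transcript start that defined its window and inside 1 annotated noncoding gene, Gm46822. The Gclm gene is annotated from an earlier base, 122245487, which lies nearer to the match. The Sod1 match lay 56 to 48 bases before its start, and its window overlapped no annotated gene. A match is a description of the letters and not a bound site, and no match in the windows of Gpx1, Gpx3, Gpx4, Nqo1 and Slc7a11 says only that these letters were not in them.

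The deposited values are intensities on a linear scale, and each difference below is the log2 intensity of the array labelled Mfsd2a KO minus that of the wild-type array. Mfsd2a itself, through its 1 probe set, read 181 in wild type and 244 on the other array, a log2 difference of 0.43. That goes against the direction of a knockout label, although a probe set outside the deleted part would check nothing, so the name used below is the array labelled Mfsd2a KO, and every direction rests on that label. A probe set counted as measured when it reached the median of either array, 94.2 in wild type and 93.4 in the other, and a gene took its brightest probe set. This left 11568 measured genes, whose median log2 difference was 0.014 and of which the central 95% lay between -0.21 and 0.23. Probe sets of the same gene differed among themselves with an SD of 0.089 on the log2 scale over 5201 genes, which is the only error these arrays give and is technical, not the spread between mice. In the tissue check, 11 of 13 rod photoreceptor markers and 10 of 12 markers of pigment epithelium were measured, among them Gnat1, the rod transducin, and Rpe65, an enzyme of the visual cycle, so the labelled tissue carried its defining transcripts.

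The antioxidant enzymes differed little between the pools. Of the 10 genes, 7 were measured, and all 7 reached the floor on both arrays. Their log2 differences ran from -0.12 (Gclm) to 0.066 (Gclc), 3 were above 0 and 4 below, where 55.8% of all measured genes were above 0 and 42.4% below, and the median was -0.014. None was 1.2-fold higher or lower, a size passed by 1.79% of all measured genes on the higher side and by 1.17% on the lower side, so with 7 genes a count of 0 is near the background. At the smaller size of 1.1-fold the count was still 0, where 16.4% of all measured genes lay past it in either direction. By probe set, 12 of 17 were above the floor, of which 5 were higher and 7 lower on the array labelled Mfsd2a KO (55.9% and 42.1% over all probe sets above the floor), with a median of -0.033 beside 0.016 over those 20105 probe sets.

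**Figure D1:**
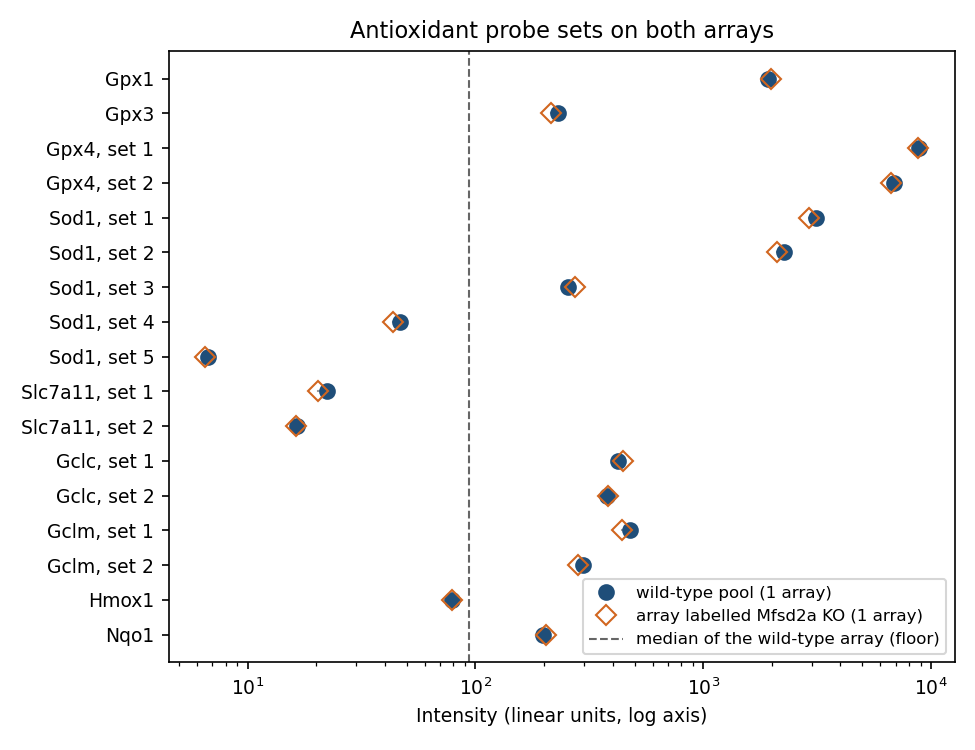
Intensity (log axis, linear units as deposited) of the 17 antioxidant probe sets on the wild-type array (filled circles) and the array labelled Mfsd2a KO (open diamonds), with 1 pool each and the floor as a dashed line. The 2 symbols of each probe set nearly coincide, 12 probe sets lie above the floor, and levels of different probe sets are not comparable because probes differ in brightness.

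Among the glutathione peroxidases, all selenium enzymes, the intracellular ones were nearly equal in both pools. Gpx1, which removes hydrogen peroxide in cytosol and mitochondria, read 1933 in wild type and 1994 on the array labelled Mfsd2a KO, a log2 difference of 0.045. Gpx4, the membrane lipid peroxide enzyme, read 8867 and 8779 in its brighter probe set (-0.014) and 6892 and 6649 in the other (-0.052). Both Gpx4 probe sets pointed the same way, and both differences were smaller than the SD between probe sets of a gene. Their names end in _a_at and _x_at, of which the latter marks probes that may also bind other transcripts. Gpx3, the secreted peroxidase, was lower at 230 in wild type and 214 on the other array, a log2 difference of -0.10, which is past that SD and well inside the central 95% of genes.

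Sod1, the cytosolic copper and zinc enzyme that turns superoxide into hydrogen peroxide, was read by 5 probe sets that did not all point the same way. The brightest read 3140 in wild type and 2918 on the array labelled Mfsd2a KO (-0.11), and the second read 2255 and 2107 (-0.098). A dimmer set was higher, at 254 and 274 (0.11). The remaining 2 lay below the floor, at 46.7 and 43.6 (-0.099) and at 6.68 and 6.47 (-0.047). Thus 4 of 5 were lower and 1 higher, but 2 of the lower ones lay below the floor. The mean over all 5, those 2 included, was -0.048.

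**Figure D2:**
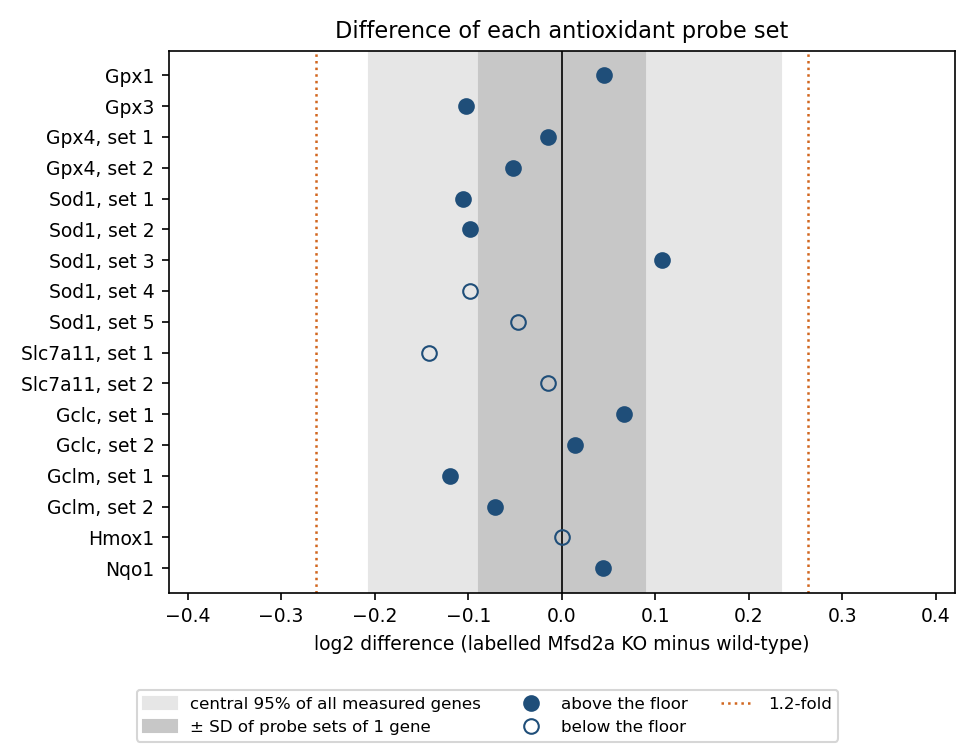
Log2 difference (array labelled Mfsd2a KO minus wild type) of each of the 17 probe sets, filled where above the floor and open where below. The dark band is the SD of 0.089 between probe sets of a gene, the light band the central 95% of all measured genes (-0.21 to 0.23), and all 17 points lie inside the light band and short of the dotted 1.2-fold lines.

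Genes of glutathione supply did not share a direction. Gclc and Gclm encode the catalytic and the modifier subunit of glutamate cysteine ligase, the enzyme that sets the rate of glutathione synthesis. Gclc read 423 in wild type and 443 on the array labelled Mfsd2a KO in its brighter probe set (0.066) and 377 and 381 in the other (0.014). Gclm read 478 and 440 (-0.12) and, in its second probe set, 296 and 282 (-0.071). The catalytic subunit was thus higher in both of its probe sets and the modifier lower in both of its own, and the Gclm value was the lowest of the 7 measured members, with 8.33% of all measured genes lower still. Slc7a11, the cystine exchanger that feeds both, was below the floor on both arrays: its 2 probe sets read 22.4 and 20.3 (-0.14) and 16.5 and 16.3 (-0.015), so no difference in it can be read from these arrays.

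Of the heme and quinone enzymes, both widely used as sensors of NRF2 activity, 1 was measured. Nqo1, which reduces quinones, read 198 in wild type and 204 on the array labelled Mfsd2a KO, a log2 difference of 0.044. Hmox1, the inducible heme oxygenase, lay below the floor and read 79.0 on both arrays, the same value to the last deposited digit. Equal values were deposited for 2159 probe sets, or 4.79% of the array, and for 1.78% of the measured genes. At this level no difference in Hmox1 can be read.

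In all, 3 measured members differed by more than the SD between probe sets of a gene, Gclm, Sod1 and Gpx3, all of them lower on the array labelled Mfsd2a KO. Among all measured genes 33.7% exceeded that SD and 13.4% were lower by more than it. When all probe sets of each gene were averaged the count was 2, since Sod1 then differed by -0.048.

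**Figure D3:**
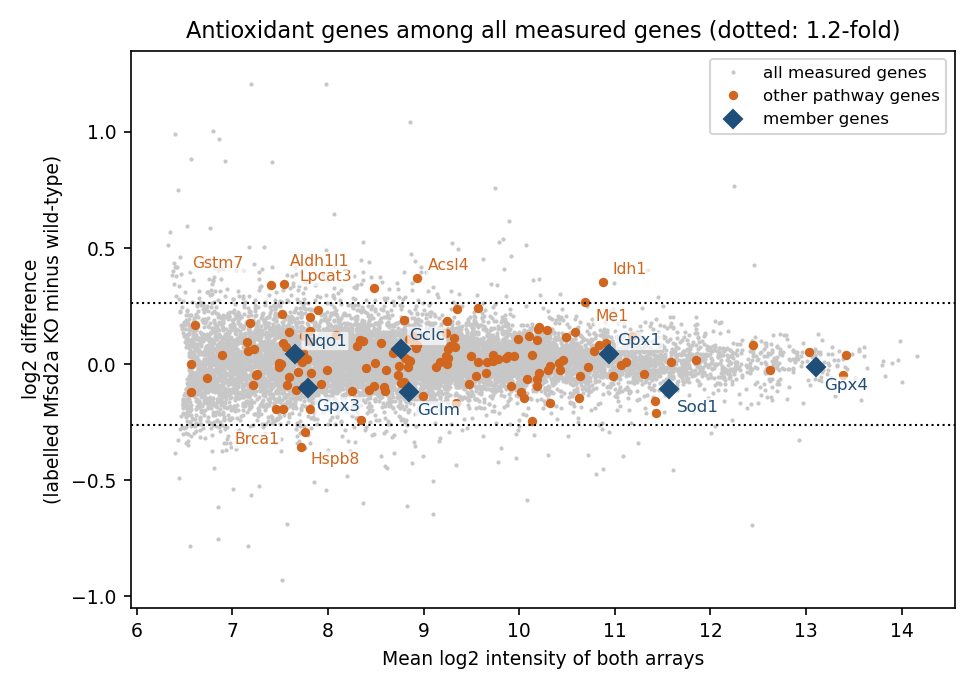
Log2 difference (array labelled Mfsd2a KO minus wild type) against mean log2 intensity for the 11568 measured genes (grey), the 147 other pathway genes (orange) and the 7 measured members (blue diamonds). The members lie inside the grey cloud between -0.12 and 0.066, while 8 named pathway genes pass a dotted 1.2-fold line.

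Around these enzymes, 15 lists of further pathway genes held 206 genes, of which 188 had a probe set and 147 were measured. Of the 147, 84 were above 0, 60 below and 3 equal, with a median of 0.015 beside 0.014 for all measured genes. Over all measured genes 55.8% were above 0 and 42.4% below, the shares to set beside the list counts that follow. At 1.2-fold 6 were higher and 2 lower, beside 1.79% and 1.17% of all measured genes, and none passed 1.5-fold in either direction, where 0.225% of all measured genes did. NRF2 and its regulators had 9 of 13 measured genes above 0 and 4 below. Nfe2l2 itself read 462 in wild type and 467 on the other array (0.015). Keap1, which marks NRF2 for breakdown, read 599 and 627 (0.065), but its other probe set differed by -0.072. Bach1, a repressor of NRF2 target genes, read 600 and 709, a log2 difference of 0.24 that stopped short of 1.2-fold, and its other probe set differed by 0.041.

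Other enzymes that remove peroxides and superoxide also differed little. None of 5 measured peroxidases and peroxiredoxins passed 1.2-fold, with Prdx2 at 0.017 and Gpx7 at 0.13. Nor did any of 3 genes for superoxide and hydrogen peroxide removal, where mitochondrial Sod2 differed by -0.014 and catalase, Cat, by 0.025. That size was passed by 1.79% of all measured genes on the higher side and by 1.17% on the lower side. With so few genes, counts of 0 are near the background. In the thioredoxin system, the second thiol route of peroxide removal, 6 of 12 genes were above 0 and 6 below. For this and the next lists, 55.8% of all measured genes were above 0 and 42.4% below. Txnrd1, a thioredoxin reductase and NRF2 target, read 573 in wild type and 628 on the other array (0.13), and its 3 probe sets ran from 0.085 to 0.13. Srxn1, sulfiredoxin and likewise an NRF2 target, read 396 and 370 (-0.097), and its 4 probe sets ran from -0.10 to -0.030. Among further glutathione genes, 4 of 12 were above 0, 6 below and 2 equal. Gsr, which regenerates glutathione, differed by 0.11 in one probe set and -0.057 in the other, and Slc3a2, the partner chain of Slc7a11, read 1615 and 1556 (-0.053). Of 15 glutathione transferases, 8 were above 0 and 7 below, and Gstm7 alone passed 1.2-fold at 151 and 191 (0.34), where its second probe set differed by -0.024. Of 11 genes that make selenoproteins or supply selenium, 7 were above 0 and 4 below. Selenop, the selenium carrier of plasma, read 2888 and 2585 (-0.16). Lrp8, its receptor, differed by 0.18, and its 3 probe sets ran from -0.028 to 0.18.

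**Figure D4:**
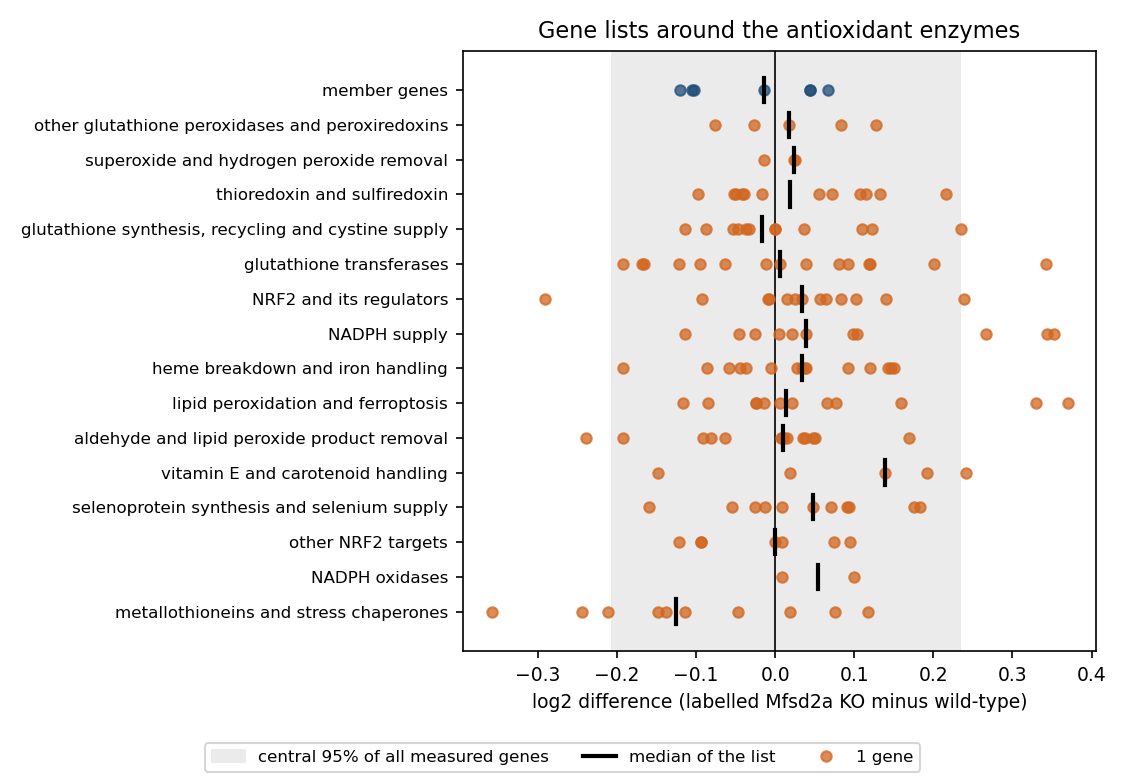
Log2 difference (array labelled Mfsd2a KO minus wild type) of each measured gene in the members (blue) and in 15 pathway lists (orange), with the list median as a black bar and the central 95% of all measured genes shaded. Medians run from -0.13 for metallothioneins and stress chaperones to 0.14 for vitamin E and carotenoid handling (-0.047 without sets ending in _s_at, _x_at or _a_at and 0.019 with no floor, respectively), and the highest genes stand in the lists of ferroptosis, NADPH supply and glutathione transferases.

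Among the 8 pathway genes past 1.2-fold, Acsl4, Lpcat3 and Idh1 remained past it when all probe sets of a gene were averaged, which cannot move Lpcat3 with its 1 probe set, and the other 5 did not. Of 12 measured genes of lipid peroxidation and ferroptosis, 7 were above 0 and 5 below, beside 55.8% and 42.4% of all measured genes. Higher by at least 1.2-fold were 2, beside 1.79% of all measured genes. Both act on the route by which polyunsaturated fatty acids enter phospholipids, the lipids that peroxidise. Acsl4, which activates long polyunsaturated fatty acids, read 430 in wild type and 555 on the array labelled Mfsd2a KO (1.29-fold), and its 3 probe sets ran from 0.28 to 0.49. Lpcat3, which esterifies them into lysophospholipids, read 320 and 402 (1.26-fold) in its 1 probe set.

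NADPH, which pays for the regeneration of glutathione, is made by a set of dehydrogenases, and 3 of 11 measured genes of its supply were at least 1.2-fold higher, beside 1.79% of all measured genes. The count was 1 with the mean of probe sets or without sets ending in _s_at, _x_at or _a_at, and 2 once the smooth trend with level (loess) was subtracted or after centring on the median gene. Idh1, the cytosolic isocitrate dehydrogenase, read 1658 in wild type and 2117 on the other array (1.28-fold), with both probe sets higher (0.32 and 0.35). Me1, malic enzyme, read 1502 and 1807 (log2 difference 0.27), with 0.16 in its other probe set. Aldh1l1, a folate enzyme of glia, read 165 and 209 (1.27-fold), with 0.051 in its other probe set. Idh1 and Me1 also supply NADPH for the synthesis of fatty acids. In the pentose phosphate branch, Pgd differed by 0.0050 and Taldo1 by 0.038.

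Metallothioneins and stress chaperones had 7 of 10 measured genes below 0, beside 42.4% of all measured genes. Their median was -0.13, which was -0.047 without sets ending in _s_at, _x_at or _a_at. The zinc-binding metallothioneins, which also quench radicals, were lower in each case: Mt1 read 2978 in wild type and 2572 on the array labelled Mfsd2a KO (-0.21), Mt2 read 1218 and 1028 (-0.24), and Mt3 read 359 and 332 (-0.11). Hspb8, a small heat shock protein, read 237 and 185 (-0.36). It was the 1 gene of the list past 1.2-fold, beside 1.17% of all measured genes lower by that size. The inducible Hspa1b differed by 0.12. Brca1, listed with the NRF2 regulators for its contact with NRF2 and best known for DNA repair, read 240 and 196 (-0.29), with probe sets of both signs.

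No gene of the remaining pathway lists passed 1.2-fold, where 1.79% of all measured genes did on the higher side and 1.17% on the lower side. Beside the counts that follow, 55.8% of all measured genes were above 0 and 42.4% below. Heme breakdown and iron handling had 9 of 15 genes above 0, with the constitutive heme oxygenase Hmox2 at 0.034, the ferritin heavy chain Fth1 at 0.037 and the transferrin receptor Tfrc at -0.0051. Removal of aldehydes, the breakdown products of lipid peroxides, had 9 of 14 above 0, with Aldh2 at -0.082 and the epoxide hydrolase Ephx1 at -0.24. The 5 probe sets of Aldh2 ran from -0.13 to 0.15. The median of the aldehyde list was 0.0094, and it was -0.026 with the mean of probe sets and -0.055 without sets ending in _s_at, _x_at or _a_at. Aldh3a1, an aldehyde dehydrogenase of the cornea listed with the corneal markers, read 142 in wild type and 92.7, below the floor, on the other array (-0.62). In vitamin E and carotenoid handling 4 of 5 were above 0, among them Scarb1, a carrier receptor for carotenoids and vitamin E, at 0.14 and Abca1, a lipid exporter, at 0.24. Other NRF2 targets had 3 of 7 above 0, 3 below and 1 equal, and both measured genes of the superoxide-making NADPH oxidases were above 0, Cyba, read at 219 and 234, and Rac1, at 0.0081.

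Markers of the cell types that hold these enzymes also differed between the pools, and their part in the values above was not tested. Beside the counts below, 55.8% of all measured genes were above 0 and 42.4% below. Microglia and macrophage markers were higher on the array labelled Mfsd2a KO in 9 of 11 measured genes (median 0.34, summed intensity 3734 in wild type and 4416 in the other). Lens markers were above 0 in 7 of 10 (2820 and 3162). Melanin synthesis markers were lower in 8 of 8 (17578 and 15722), pigment epithelium in 9 of 10 (31905 and 30011), endothelium in 9 of 10 (7896 and 7530), skeletal muscle in 9 of 11 (5275 and 4712), cornea and conjunctiva in 8 of 8 (median -0.25, summed intensity 8017 and 7602), and ciliary body and iris in 4 of 6 (2108 and 1833). Most of the corneal sum was Tkt, an enzyme also in the NADPH list, and without it the sums were 1660 and 1354. Ttr, at 15804 in wild type and a log2 difference of 0.019, likewise made up much of the pigment epithelium sum. Slc2a1, at 3888 in wild type and -0.012, made up much of the endothelial sum. Sums without Ttr or Slc2a1 were not taken. Mueller glia, the main support cells of the retina, were lower in 9 of 12 (40974 and 40056) and rods in 8 of 11 (106756 and 105072). Of 9 red blood cell markers only Alas2 was measured, at 147 and 124. The lowest deposited values were 5.15 in wild type and 5.07 on the other array, so no marker could read 0. Absence of a marker can therefore not be judged from a value of 0.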

How the data were processed

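Per the labels' protocols, total RNA of 1 pool of 6 animals per genotype was labelled and hybridised to 1 array. The deposited intensity values were taken as they stand. Per the submitters' processing notes the authors used Partek 6.6 and RMA, which subtracts background, gives arrays 1 common distribution, merges the probes of a set and shrinks differences of dim sets. The scale is linear, judged by the values (medians 94.4 and 93.6). Base 2 logarithms were taken with numpy 2.4.6 and pandas 2.3.3, and loess was from statsmodels 0.14.6 (Python 3.11.15). The steps were tested on simulated data with log2 differences of 0.5 planted in 198 genes. Those are larger than the differences of the members, so the simulation does not bear on differences of that size.

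The platform annotation gave 34958 probe sets 1 symbol, 932 several and 9211 none. By Entrez identifier 34754 matched the RefSeq table of GRCm38.p6, which renamed 0. Medians for the floor left out 64 controls. Members, gene lists and sizes of 1.2-fold and 1.5-fold were chosen with earlier results of these data known. Names were drawn from all members, the first 2 measured genes of each pathway list, its 3 largest differences and the first 3 markers of each cell type. Prdx2, Slc3a2, Taldo1, Mt3, Fth1, Tfrc, Srxn1, Aldh3a1, Tkt, Ttr, Slc2a1 and Hspa1b were chosen after their values were seen. No gene of like pattern is named, because 2 arrays give each gene 1 difference. Alternatives were the mean over probe sets, leaving out sets ending in _s_at, _x_at or _a_at, and a floor at the 70th percentile or none. Further ones were removing a loess trend (span 0.3), centring on the median, and other sizes. The mean took in all probe sets of a gene, those below the floor included. Leaving Tkt out of the corneal sum was added after seeing the data.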

Additional observations from a re-analysis of the deposited data

How the results depend on the processing

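No paired analysis was possible because there is 1 pool a genotype. Every member gene with a nonzero difference kept its direction under the alternatives in which it had a value. Part of this was fixed in advance, since a floor cannot change the value of a gene. Gpx1, Gpx3 and Nqo1 have 1 probe set each, so only loess and centring could move them. Over them Gclm ran from -0.14 to -0.096, Sod1 from -0.12 to -0.048, Gpx3 from -0.12 to -0.10, Gpx4 from -0.033 to -0.014, Gpx1 from 0.030 to 0.045, Nqo1 from 0.030 to 0.044 and Gclc from 0.014 to 0.066. With no floor, 11 of the 17 member probe sets were below 0, beside 8878 of 18193 genes of the whole array with no floor. The member probe sets this adds lie below the floor, where no difference can be read. Gpx4 has no value without sets ending in _s_at, _x_at or _a_at. Of the 8 pathway genes past 1.2-fold, 3 (Acsl4, Idh1 and Lpcat3) were kept with the mean of probe sets, 4 at the 70th percentile floor, 6 without those sets, where Idh1 had none left, 7 after loess or centring, which lost Me1, and 8 with no floor. Medians of the 15 pathway lists changed sign, or moved to or from exactly 0, in some lists under each alternative. That was 4 lists each after centring, loess, the higher floor or leaving out those sets, 2 with the mean and 1 with no floor. Metallothioneins and stress chaperones had a median of -0.047 without those sets, and vitamin E and carotenoid handling 0.019 with no floor. The cause of these changes was not tested.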

Other observations

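The deposited values have a step structure. Of the intensities between 100 and 1000, 9.39% in wild type and 9.49% on the array labelled Mfsd2a KO left a remainder of 0.176 after whole steps of 0.5, with the remainder taken to 3 decimals. Gsr, at 442.676 and 477.676, was one such pair, and Lpcat3, at 319.676 and 401.676, another. The cause was not tested.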
